A study of Mus musculus with 7 samples.

Results

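The predicted genes of mouse chromosome 14 were examined in HM-1 cells, a mouse ovarian cancer cell line, after transduction with hairpins against Snail. They were the transcript clusters whose ID names the chromosome of 1700024B05Rik and whose only symbol in the platform annotation is Gm followed by digits or ends in Rik. This rule gave 452 clusters of 2828 on the chromosome and of 65770 on the array. Of these, 15 are genes that the study listed as DUF622 family members among its downregulated genes, and 437 are other predicted genes. Predicted genes are counted by cluster throughout, and some symbols have several clusters. The list names 19 clusters in all, and 4 of them (Gm8011, Gm10378, Gm3008 and Gm8046) have no symbol in the annotation and are named here from the study's list only. The list was chosen by the shSnail against control values of these arrays, with a 2-fold threshold and a p-value. The changes of its members in that contrast are therefore given as a description with no p-value, and where the number of listed genes that pass a threshold is printed, nothing is read from it. The study's table of downregulated genes also holds 1700049E17Rik1 and Gfra2 of this chromosome without the DUF622 name, and their changes are given in the same way.

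RNA of 7 cultures was hybridized to Affymetrix mouse transcriptome arrays. The shSnail cells carried a lentiviral GIPZ hairpin against Snail, sh1 (2 arrays) or sh2 (2 arrays), and together make up the 4 arrays labelled HM-1-shSnail. The control cells carried a non-silencing hairpin of the same vector and are labelled HM-1-control (3 arrays). All arrays come from 1 cell line, and no source says that the cells of a hairpin were made more than once, so p-values measure the spread between these cultures.

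DUF622 is the older name of the takusan domain, a short protein domain that is also found in Dlg5, a scaffold protein of cell junctions. Genes with this domain have multiplied in the mouse into many near-identical copies on chromosome 14, and proteins of the alpha-takusan group are known in mouse brain for promoting the clustering of the synaptic scaffold protein PSD-95 and synaptic activity. Many copies carry only predicted names, and several are annotated as pseudogenes. Among the 19 listed clusters, RefSeq calls 8 protein-coding, 3 pseudogenes, 1 a transcribed pseudogene, 2 lncRNAs and 1 a misc_RNA (1700024B05Rik), and the 4 clusters without an annotation symbol were not matched.

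Promoter sequences show how alike these genes are, and they are printed for the genes whose array values are compared further on. RefSeq (GRCm38.p6) gave a promoter, 250 bases before to 50 after the start, for 9 of the 19 listed genes. The promoter of Gm8104 (chr14:43057552-43057851, plus strand) is set first below. It is followed by Gm3371 (chr14:44452355-44452654, minus strand), also of the list, and by Gm5622 (chr14:51552540-51552839, plus strand) and 1700047E10Rik (chr14:44213188-44213487, minus strand), which are predicted genes outside it. Capitals mark bases that differ from the aligned Gm8104 base, and the sequences run 5′ to 3′.
Gm8104: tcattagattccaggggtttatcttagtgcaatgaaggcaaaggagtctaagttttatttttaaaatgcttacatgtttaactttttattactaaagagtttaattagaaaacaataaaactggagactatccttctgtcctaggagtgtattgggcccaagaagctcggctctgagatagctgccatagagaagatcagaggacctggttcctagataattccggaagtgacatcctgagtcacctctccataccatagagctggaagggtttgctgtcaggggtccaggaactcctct
Gm3371: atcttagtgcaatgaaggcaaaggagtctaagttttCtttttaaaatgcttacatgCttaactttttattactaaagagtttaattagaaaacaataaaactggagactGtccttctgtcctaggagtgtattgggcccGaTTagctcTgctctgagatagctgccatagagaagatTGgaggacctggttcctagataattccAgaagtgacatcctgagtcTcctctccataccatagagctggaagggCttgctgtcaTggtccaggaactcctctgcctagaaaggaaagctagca
Gm5622: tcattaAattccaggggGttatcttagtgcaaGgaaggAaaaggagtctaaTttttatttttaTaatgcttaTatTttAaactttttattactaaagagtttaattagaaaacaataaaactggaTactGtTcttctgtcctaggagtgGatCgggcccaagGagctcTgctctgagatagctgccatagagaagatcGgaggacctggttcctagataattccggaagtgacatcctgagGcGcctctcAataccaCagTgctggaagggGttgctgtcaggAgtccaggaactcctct
1700047E10Rik: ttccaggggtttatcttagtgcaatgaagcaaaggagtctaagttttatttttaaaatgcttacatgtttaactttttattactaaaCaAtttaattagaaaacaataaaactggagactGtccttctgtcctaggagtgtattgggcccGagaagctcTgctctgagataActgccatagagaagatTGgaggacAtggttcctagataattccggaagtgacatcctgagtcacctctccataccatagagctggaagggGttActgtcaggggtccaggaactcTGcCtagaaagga

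Gm3371 matched Gm8104 at 95% of 280 aligned positions, with 13 mismatches and 1 gap. Gm5622 matched at 92.0% of 300 positions, and 1700047E10Rik at 94.9% of 292. A further set of like promoters is that of 1700049E17Rik1 (chr14:41924699-41924998, plus strand), the start of Gm2959 that lies farther along the chromosome (chr14:42463633-42463932, plus strand) and Gm8267 (chr14:44724938-44725237, minus strand). Capitals here mark differences from 1700049E17Rik1, whose promoter is the same in all 300 bases as that of 1700049E17Rik2.
1700049E17Rik1: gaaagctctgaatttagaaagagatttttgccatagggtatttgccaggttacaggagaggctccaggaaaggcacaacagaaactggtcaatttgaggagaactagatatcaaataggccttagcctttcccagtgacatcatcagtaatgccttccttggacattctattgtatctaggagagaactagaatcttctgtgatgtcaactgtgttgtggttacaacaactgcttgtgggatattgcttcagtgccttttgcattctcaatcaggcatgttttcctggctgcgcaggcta
Gm2959: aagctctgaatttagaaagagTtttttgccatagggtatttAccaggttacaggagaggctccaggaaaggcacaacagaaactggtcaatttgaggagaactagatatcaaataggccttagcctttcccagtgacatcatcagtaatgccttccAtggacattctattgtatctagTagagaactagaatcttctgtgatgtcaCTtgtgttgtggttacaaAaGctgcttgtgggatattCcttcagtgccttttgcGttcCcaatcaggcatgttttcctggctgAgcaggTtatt
Gm8267: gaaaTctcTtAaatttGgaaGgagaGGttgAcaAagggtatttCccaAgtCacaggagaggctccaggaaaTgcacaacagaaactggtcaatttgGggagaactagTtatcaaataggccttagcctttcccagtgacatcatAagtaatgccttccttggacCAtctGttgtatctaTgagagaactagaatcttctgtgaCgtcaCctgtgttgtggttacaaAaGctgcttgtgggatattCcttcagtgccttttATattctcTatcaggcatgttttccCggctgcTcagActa

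Gm2959 matched 1700049E17Rik1 at 95.6% of 298 positions and Gm8267 at 89.4% of 301. The array's probe sequences were not used here. Whether a probe of one copy also binds RNA of another was not tested, so the value of each copy is uncertain as a measure of that copy alone, and the clusters are not independent of each other.

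The DUF622 genes had lower signal in every shSnail array than in any control array, and the other predicted genes of the chromosome mostly differed little between the groups. Over the 19 listed clusters the median log2 fold change of shSnail against control was -1.34, and it ran between -2.01 and -1.01. For the 15 of them that meet the rule by annotation the median was -1.32. For the 437 other predicted genes it was -0.01, and over all clusters it was 0.00. The 4 shSnail arrays lay below the 3 control arrays in 19 of 19 listed clusters, where 4.01% of all clusters do so. The contrast chose these genes, so nothing is read from that count.

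1700024B05Rik, a misc_RNA in RefSeq and a DUF622 domain protein in the study's table, had the largest difference of the list. Its log2 signal was 7.01 and 7.02 in the sh1 arrays and 6.89 and 6.94 in the sh2 arrays, against 8.92, 8.93 and 9.06 in the control arrays. The log2 fold change was -2.01 (SE 0.05), a 4.02-fold difference. The 4 shSnail values lay close together and well apart from the 3 control values.

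Gm8046, a cluster named only in the study's list, stood near the middle. Its log2 signal was 6.47 and 6.69 with sh1 and 6.61 and 6.65 with sh2, against 7.92, 8.17 and 7.75 in control. The log2 fold change was -1.34 (SE 0.11), or 2.53-fold, and the groups did not overlap.

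Gm10378, likewise named only in the list, came next to 1700024B05Rik in size. It had 6.85 and 7.07 with sh1 and 6.97 and 6.74 with sh2, against 8.75, 8.76 and 8.69 in control, a log2 fold change of -1.82. Gm7995, annotated as protein-coding, had 6.15 and 6.44 with sh1 and 6.30 and 6.32 with sh2, against 7.90, 7.99 and 7.98 in control, a log2 fold change of -1.65. In both genes the control arrays agreed more closely with each other than the shSnail arrays did.

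The pseudogenes Gm7991 and Gm8065 were as far from control, with more spread between the shSnail arrays. So was Gm2959, which is protein-coding in RefSeq and a pseudogene in the study's table. Gm7991 had 6.67 and 7.36 with sh1 and 7.08 and 7.19 with sh2, against 8.64, 8.78 and 8.73 in control. Gm8065 had 6.72 and 7.10 with sh1 and 7.13 and 7.26 with sh2, against 8.65, 8.77 and 8.72 in control. Gm2959 had 6.37 and 7.04 with sh1 and 6.74 and 6.86 with sh2, against 8.27, 8.34 and 8.51 in control. In all 3 the lowest value was that of sh1 replicate 1, and no value reached the control range.

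The minus-strand copies Gm3371 and Gm5930, both annotated as protein-coding, were dimmer. Gm3371 had 6.09 and 6.06 with sh1 and 6.0 and 6.07 with sh2, against 7.37, 7.15 and 7.61 in control. Gm5930 had 5.94 and 5.92 with sh1 and 5.96 and 5.64 with sh2, against 7.09, 7.24 and 6.93 in control. Gm3371 had the smallest spread between shSnail arrays of the list (SD 0.04), and its control arrays were spread more widely (SD 0.23).

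The threshold of the list lies just past Gm2832, annotated as protein-coding, which had 6.34 and 6.29 with sh1 and 6.44 and 6.43 with sh2, against 7.20, 7.55 and 7.40 in control. Its log2 fold change was -1.01 (2.01-fold). In the same neighbourhood, 1700049E17Rik1, in the study's table without the DUF622 name, was lower by 2.85-fold. Among clusters that are not in that table, Gm9597 was lower by 2.44-fold, Gm6536 by 2.31-fold, Gm7233 by 1.86-fold and Gm5798 by 1.86-fold. Clusters in and out of the table thus overlapped in the size of their change.

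**Figure D1:**
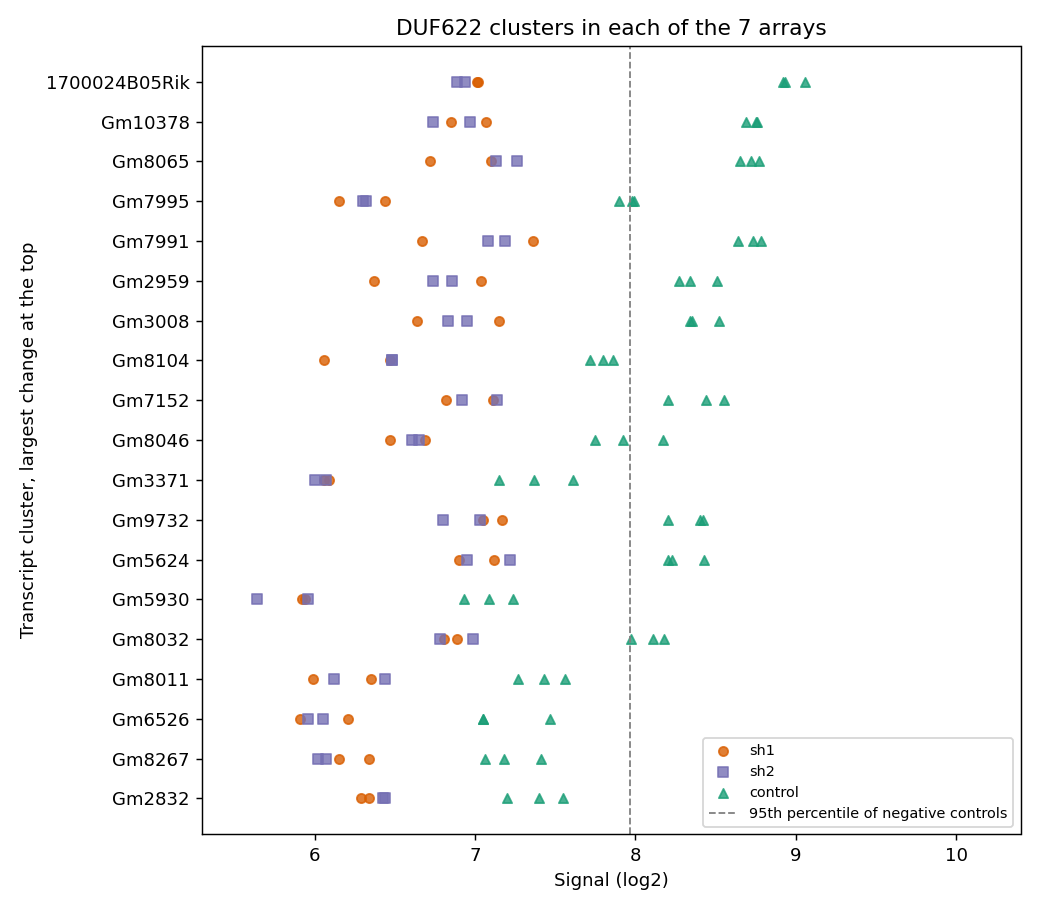
Signal (log2, horizontal axis) of the 19 listed DUF622 clusters (rows, largest change at the top) in each array, with sh1 as circles, sh2 as squares and control as triangles, and the 95th percentile of the negative controls as a dashed line. All shSnail values lie left of all control values in each row, and 1700024B05Rik spans the widest gap, with shSnail values of 6.89 to 7.02 and control values of 8.92 to 9.06.

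These differences were measured at low signal. The 95th percentile of the array's negative control probe sets was 7.97 on the log2 scale. The shSnail mean lay under it in 19 of 19 listed clusters (5.86 to 7.08), and the control mean lay under it in 9 of 19 (7.09 to 8.97). Near background a fold change can be compressed, so the size of each change is uncertain. The negative controls themselves had array medians of 4.92 to 4.99 with sh1 and 5.12 to 5.20 with sh2, against 4.83 to 4.86 in control, so they were higher in the shSnail arrays, in which the DUF622 clusters were lower.

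Within a group, the copies shared part of their differences between arrays. Sh1 replicate 1 was the lowest of the 4 shSnail arrays in 11 of 19 listed clusters, and control replicate 2 was the highest of the 3 control arrays in 12 of 19. The median over the list was 6.47 and 6.81 in the sh1 arrays and 6.74 and 6.74 in the sh2 arrays, against 7.97, 8.18 and 8.11 in control. The median over the 437 other predicted genes was 4.82 and 4.78 with sh1 and 4.80 and 4.72 with sh2, against 4.80, 4.82 and 4.78 in control. The group ranges of the listed clusters were apart, and those of the other predicted genes overlapped.

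Both hairpins gave the same direction, with the same control arrays as reference. The median log2 fold change of the 19 listed clusters was -1.37 for sh1 (range -1.96 to -0.97) and -1.34 for sh2 (range -2.06 to -0.95). With limma and Benjamini-Hochberg adjustment over all clusters, 4 of the 15 members passed an adjusted p of 0.05 for sh1, where 0.0821% of all clusters were called lower, and 12 of 15 passed for sh2, where 0.477% were called lower. In shSnail against control 15 of 15 passed, where 0.432% of all clusters were called lower. Nothing is read from these counts, since the list came from the same arrays.

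The comparison of sh2 with sh1 is given as a description for the listed clusters, since the p-value that chose them depends on the spread between the hairpins too. It gave a median log2 difference of 0.04 over the 19 listed clusters, with 12 above 0 and 7 below. The largest differences were those of Gm8065, at 0.28 in the direction of higher signal with sh2, and Gm8267, at -0.20. The SE of these differences ran between 0.05 and 0.24. In this comparison 0 of all 65770 clusters were called lower by limma and 0 higher (0% each). Among the other predicted genes 10 were lower and 6 higher at an unadjusted limma p of 0.05. The share of all clusters at that threshold was not taken, so nothing is read from these 2 counts. A p that misses the threshold does not show that the 2 hairpins act alike on these genes.

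The other predicted genes give the rest of the chromosome's pattern. Of the 437, 6 were called lower and 0 higher in shSnail (limma, adjusted p under 0.05), where 0.432% of all clusters were called lower and 0.21% higher. At an unadjusted limma p of 0.05, 36 were lower and 5 higher. No share of all clusters was taken at that threshold, so nothing is read from such counts here or below. A change of less than 0.5 on the log2 scale was measured in 425 of them, and 383 had both group means under that percentile of the negative controls. In 26 all 7 values were equal as the deposited table gives them. Groups that did not overlap were found in 35 genes with shSnail below control, against the 4.01% of all clusters given above, and in 7 with shSnail above control, where 5.08% of all clusters do so.

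Gm6536, a transcribed pseudogene, fell the most of the 6. Its log2 signal was 6.11 and 6.19 with sh1 and 5.81 and 5.96 with sh2, against 7.46, 6.96 and 7.26 in control (log2 fold change -1.21, SE 0.15, limma adjusted p = 0.041). Gm5798 and Gm8126, both annotated as protein-coding, fell less. Gm5798 had 6.24 and 6.54 with sh1 and 6.32 and 6.55 with sh2, against 7.36, 7.16 and 7.40 in control (log2 fold change -0.89, limma adjusted p = 0.038). Gm8126 had 6.44 and 6.63 with sh1 and 6.70 and 6.61 with sh2, against 7.32, 7.40 and 7.49 in control (log2 fold change -0.81, limma adjusted p = 0.018). These 3 genes have plus-strand IDs inside the range of the listed DUF622 clusters.

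Gm8257, a pseudogene among the minus-strand DUF622 clusters, was the dimmest of the 6. It had 5.27 and 5.23 with sh1 and 5.23 and 5.14 with sh2, against 5.94, 6.16 and 5.98 in control (log2 fold change -0.81, SE 0.06, limma adjusted p = 0.013). Its shSnail mean stood at the 54.5th percentile of the negative controls.

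The last 2 of the 6 lie elsewhere on the chromosome. Gm5622, whose promoter is printed above, had 5.94 and 6.19 with sh1 and 6.31 and 6.04 with sh2, against 7.02, 7.14 and 7.40 in control (log2 fold change -1.07, SE 0.13, limma adjusted p = 0.039). 2410012E07Rik, a lncRNA, had 5.74 and 5.58 with sh1 and 5.58 and 5.63 with sh2, against 6.41, 6.58 and 6.78 in control (log2 fold change -0.96, SE 0.09, limma adjusted p = 0.023). Its cluster has the ID number 1011, and the next number belongs to Gfra2, a receptor for neurturin, with a log2 fold change of -2.25, which is in the study's table from these arrays. Gfra2 had 7.77 and 7.80 with sh1 and 8.19 and 7.91 with sh2, against 10.30, 10.10 and 10.11 in control.

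Several more predicted genes were lower in each shSnail array without passing the test. Gm9597, a pseudogene, had 6.14 and 5.91 with sh1 and 6.01 and 5.31 with sh2, against 6.78, 7.31 and 7.31 in control (log2 fold change -1.29, limma adjusted p = 0.13). 4930503E14Rik, annotated as protein-coding, had 6.75 and 6.52 with sh1 and 6.57 and 6.25 with sh2, against 7.39, 7.79 and 7.59 in control (log2 fold change -1.07, limma adjusted p = 0.057). Gm16439, a pseudogene, is the one of this kind that was measured far above background. It had 11.04 and 11.18 with sh1 and 11.39 and 11.14 with sh2, against 11.79, 12.03 and 11.79 in control (log2 fold change -0.68, SE 0.10, limma adjusted p = 0.075).

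The brightest of the other predicted genes differed little between the groups, near the top of the signal range (highest value of any cluster 19.06), where a change can go unmeasured. Gm4654, a pseudogene, ran between 17.97 and 18.03 in the 4 shSnail arrays, against 18.01 in each control array. Gm3534 and Gm16409, pseudogenes as well, changed by -0.04 and -0.02 on the log2 scale. Among the 24 other predicted genes whose control mean lay in the range of the listed DUF622 clusters, the median log2 fold change was -0.06. Of these 24, 4 were called lower and 0 higher, where 0.432% and 0.21% of all clusters were called. The 24 include 5 genes whose IDs lie inside the ID ranges of the listed DUF622 clusters. The largest increase among the 437 was that of Gm26440, annotated as a snoRNA, at 0.64 (limma adjusted p = 0.37).

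With sh1 alone, 0 of the 437 were called lower and 0 higher, where 0.0821% and 0.0517% of all clusters were called. At an unadjusted limma p of 0.05, 23 were lower and 11 higher, from which nothing is read. With sh2 alone, 5 were called lower and 2 higher, where 0.477% and 0.809% of all clusters were called. The 5 were Gm6536, Gm8126, 2410012E07Rik, Gm8257 and Gm8180, the last a lncRNA with a log2 fold change of -0.32 (limma adjusted p = 0.041). The 2 that rose were B930095G15Rik at 0.31 and 4930594M22Rik at 0.14, both lncRNAs, with limma adjusted p-values of 0.033 and 0.026. Sh2 against sh1 called none of the 437, so a difference between the hairpins was not shown for these genes.

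Placed in the order of their cluster IDs, the lower genes stood next to each other. ID numbers of the chromosome ran first along the plus strand and then along the minus strand: of 681 clusters whose gene has a RefSeq promoter, 665 lay on the strand of their run. The 15 listed clusters of the plus strand had the numbers 415 to 448, and the 4 of the minus strand 1882 to 1888. The limits of these stretches were set by the list, so what they hold is a description.

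**Figure D2:**
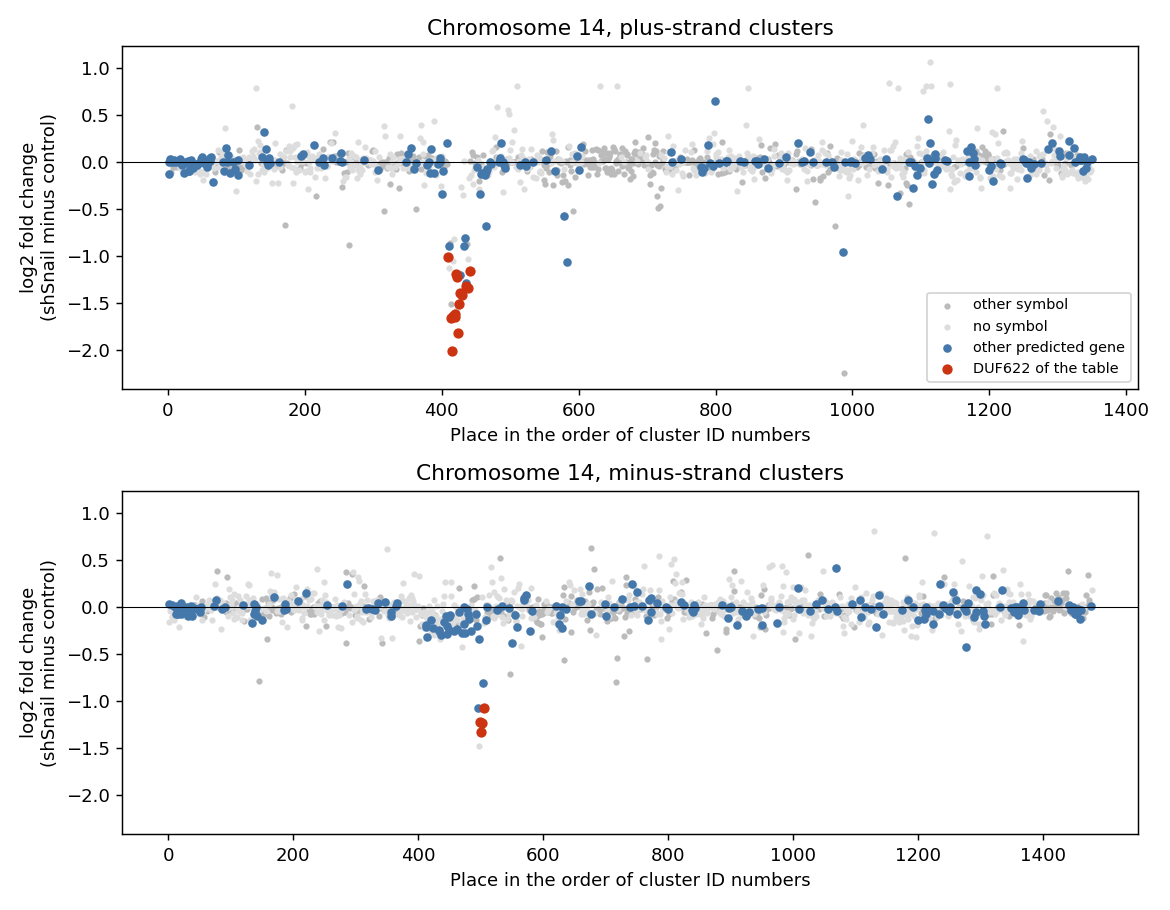
Log2 fold change of shSnail against control (vertical axis) for each cluster of chromosome 14 by its place in the order of ID numbers (horizontal axis), with plus-strand clusters above and minus-strand clusters below. Listed DUF622 clusters (red) and other predicted genes (blue) near them form a narrow dip on each strand. Listed clusters reach -2.01 on the plus strand and -1.32 on the minus strand. Most other clusters (grey) lie near 0, and Gfra2, outside the dip, lies at -2.25.

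Inside the 2 stretches, clusters that are not in the list were low in shSnail as well. The plus-strand stretch held 34 clusters, of which 19 are not listed, and their median log2 fold change was -0.89. The minus-strand stretch held 7 clusters, of which 3 are not listed, with a median of -0.81. Without 1700049E17Rik1, 16 of the other 21 unlisted clusters had all shSnail arrays below all control arrays, where 4.01% of all clusters do so. Limma called 10 of the 21 lower, where 0.432% of all clusters were called lower. Outside the stretches and without Gfra2, 132 of 2786 clusters of the chromosome were separated in this way, and the median was -0.01. Of these 2786, 10 were called lower and 1 higher, where 0.432% and 0.21% of all clusters were called.

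1700049E17Rik1, a gene of this family neighbourhood whose symbol ends in a digit and so falls outside the rule, stands in the study's table without the DUF622 name. It had 7.04 and 7.10 with sh1 and 7.0 and 7.20 with sh2, against 8.62, 8.52 and 8.64 in control (log2 fold change -1.51, SE 0.06). 1700049E17Rik2, with the same promoter sequence, had 6.40 and 6.27 with sh1 and 6.37 and 6.39 with sh2, against 7.13, 7.17 and 7.36 in control (log2 fold change -0.86, limma adjusted p = 0.012). Both were separated between the groups. Of 12 clusters without a symbol in the stretches, 8 had all shSnail arrays below all control arrays, where 4.01% of all clusters do so. Their log2 fold changes ran down to -1.57.

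Neighbours beyond the stretches mostly differed little between the groups. Before the plus-strand stretch stood Mat1a, an enzyme of methionine metabolism, Sftpa1 and Mbl1, secreted lectins of innate defence, and the small nuclear RNA Gm22823, with log2 fold changes of 0.01, -0.02, -0.02 and 0.20. After it stood Ang-ps2 and Ang-ps3, pseudogenes of the angiogenin family, at 0.11 and 0.07. After the minus-strand stretch stood Ptgdr, a prostaglandin receptor, at 0.03. All of these but Gm22823 had group means of 3.71 to 4.52, below the median of the negative controls of 4.94. Gm22823 had a mean of 13.32 in shSnail and 13.13 in control. Before the minus-strand stretch, 4930503E14Rik was low in shSnail as given above, and a cluster without a symbol had a log2 fold change of -1.48 (limma adjusted p = 0.040).

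Not all clusters inside the stretches were low. The cluster shared by Gm7324 and Rbmxl1, an RNA-binding protein, had a mean of 13.08 in shSnail and 13.08 in control (log2 fold change 0.00). Its ID lies between those of the listed genes Gm8046 and Gm6526. The cluster carries the symbols of both genes, and which of them gave the signal was not tested. 1700047E10Rik, next to the minus-strand stretch, had a log2 fold change of -0.34 (limma adjusted p = 0.40) with a promoter that matches Gm8104 at 94.9%.

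**Figure D3:**
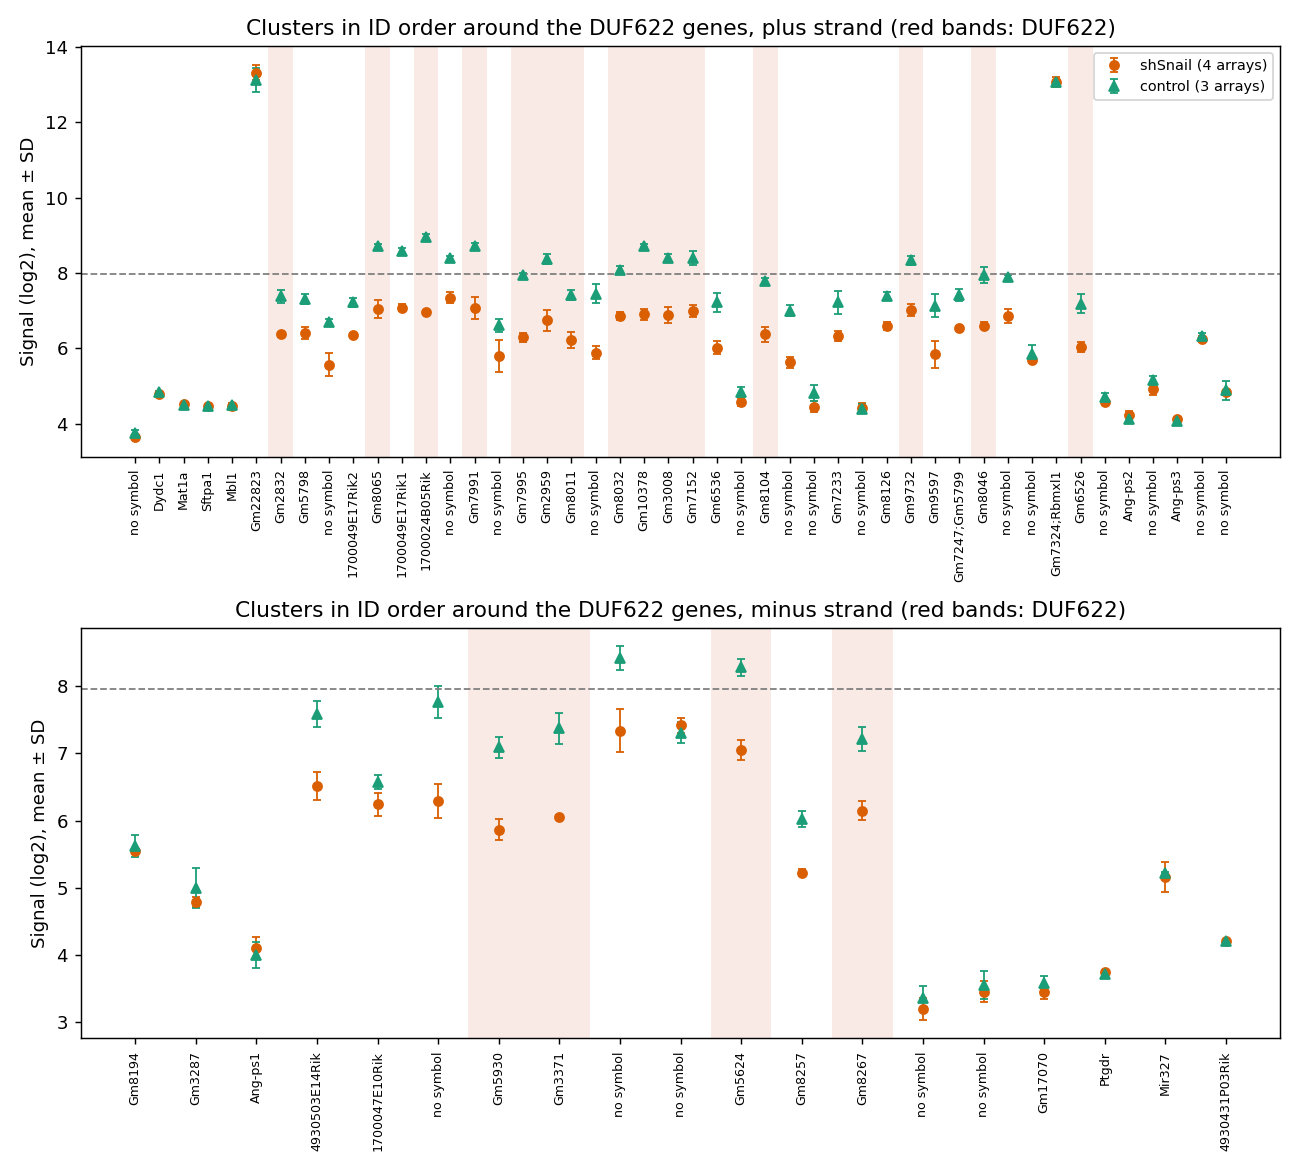
Mean log2 signal with SD (vertical axis) of shSnail arrays (circles, n = 4) and control arrays (triangles, n = 3) for clusters in ID order (horizontal axis), with 6 neighbours on each side, plus strand above and minus strand below. Red bands mark the listed DUF622 clusters and the dashed line the 95th percentile of the negative controls. The groups part at Gm2832 and meet again after Gm6526, except at Gm7324 and Rbmxl1 and a few clusters without a symbol.

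Predicted genes of the opposite strand lie among the plus-strand copies. By the RefSeq order, 25 other predicted genes with minus-strand IDs have their place between Gm2832 and Gm6526, among them Gm7954 and Gm17027. Their median log2 fold change was -0.20 (range -0.32 to 0.00), 24 of 25 were below 0, and 17 of 25 had all shSnail arrays below all control arrays, where 4.01% of all clusters do so. Gm7954 had 5.46 and 5.44 with sh1 and 5.48 and 5.25 with sh2, against 5.93, 5.63 and 5.62 in control. Limma called 0 of these 25 in shSnail against control. Their group medians were 5.43 in shSnail and 5.73 in control, within the negative controls' range, and the group was chosen after its values were seen. Between Gm5930 and Gm8267 stand 5 other predicted genes with plus-strand IDs, with a median of -0.13 (range -0.68 to -0.11). All 5 were below 0, 2 had all shSnail arrays below all control arrays, and limma called 0. The lowest was Gm16439, given above. This group was also named after its values were seen.

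A further group of predicted genes at the start of the chromosome holds 2610042L04Rik, which RefSeq also names takusan. It had 4.32 and 4.39 with sh1 and 4.32 and 4.32 with sh2, against 4.32, 4.32 and 4.26 in control. The 85 clusters of predicted genes placed before Abhd6, a lipase gene, including 2610042L04Rik, had a median log2 fold change of -0.02 (range -0.22 to 0.05). None was called, and none passed an unadjusted p of 0.05 in limma. Their group medians were 4.82 in shSnail and 4.81 in control, below the median of the negative controls of 4.94.

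Promoters were also compared with those of the listed genes. Among all 32851 promoters of the table, 15 genes outside the list had one that matched a listed DUF622 promoter at 80% or more of at least 200 aligned bases, and 9 of them were measured by a cluster of 1 symbol. Of these, 7 are on chromosome 14, and 1 of them, 1700049E17Rik1, was in the study's table. The other 6 had a median log2 fold change of -0.88 (range -1.07 to -0.34), 6 of 6 were below 0, and 4 were called lower (limma, 0.432% of all clusters). They were 1700049E17Rik2, Gm5622, Gm5798, Gm8126, 4930503E14Rik and 1700047E10Rik. Gm5622, at number 589, lies outside both stretches.

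The 2 relatives on other chromosomes, Cdk6, a cell cycle kinase, and E030030I06Rik, match the promoter of Gm2832 only. Cdk6 matched at 87.8% and had a mean of 13.64 in shSnail and 13.61 in control (log2 fold change 0.04). E030030I06Rik matched at 84.6% and had a log2 fold change of -0.04. The 183 other predicted genes of chromosome 14 with a promoter that reached 80% with no listed one had a median of -0.02 (range -0.57 to 0.24), and 0 were called by limma. Of these genes, 39 had a promoter that matched a listed one at 70% or more over at least 200 bases, the closest being Gm2888 at 79.7%. The lowest of the 183 was Gm7247, at -0.57 (limma adjusted p = 0.065). Its symbol is also on a cluster of the plus-strand stretch, shared with Gm5799, with a log2 fold change of -0.87. The promoter of Gm5799 matches that of Gm2959 at 94.5%. Likeness was measured on promoters because no protein sequences were used here, and this measure was chosen after the values were seen. The groups were not matched for signal level. The 7 relatives on chromosome 14 had control means of 6.58 to 8.59. Other predicted genes outside the stretches had a median control mean of 4.78. Whether the difference between the groups goes with likeness or with signal level was not tested.

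**Figure D4:**
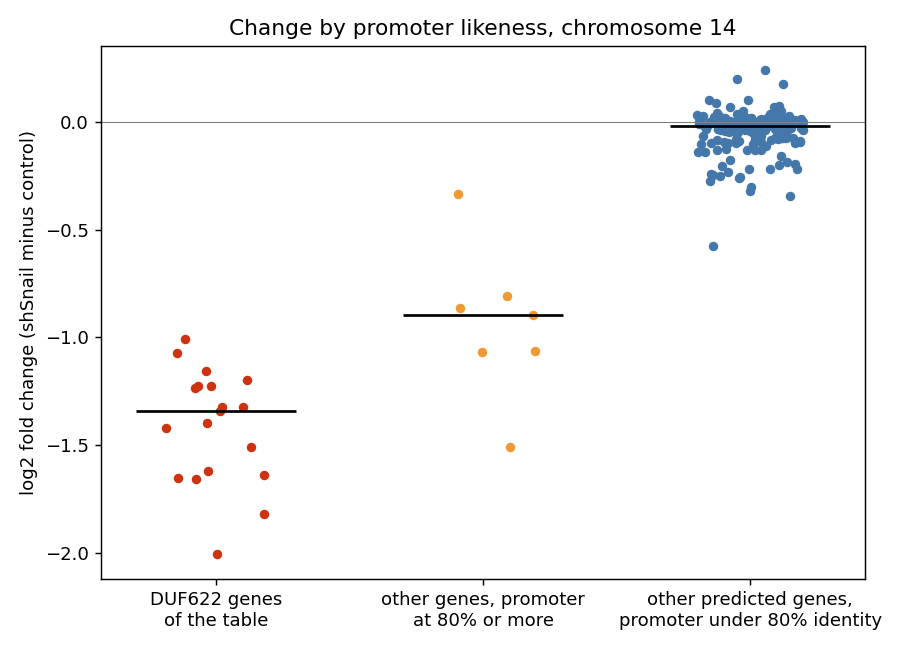
Log2 fold change of shSnail against control (vertical axis) for the 19 listed DUF622 clusters, for 7 other genes of chromosome 14 whose promoter matches a listed one at 80% or more (1 of them, 1700049E17Rik1, also in the study's table), and for 183 clusters of other predicted genes whose promoter lies under that value. Points are clusters and lines are medians (-1.34, -0.89 and -0.02). The groups were not matched for signal level.

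Most of the listed promoters were poor in CG dinucleotides. Over 11 promoters of 9 listed genes the median GC content was 42.0% (range 38.3% to 58.3%) with a median of 1 CG (range 0 to 14, the 14 in Gm2832). All promoters of the table had medians of 52.7% and 7. The 11 are not independent, since 7 of the 9 genes have a promoter like that of another listed gene and the 2 promoters of Gm8032 overlap. That of 2610042L04Rik had 70.7% GC and 28 CG. The E-box CAGGTG, the sequence Snail is known to bind, was sought on both strands and found in 1 of the 11 (Gm8267), where 20.2% of all promoters and 38.6% of the 207 promoters of other predicted genes of the chromosome hold it. The wider E-box CANNTG, which includes CAGGTG, was in 7 of 11 (72.3% of all promoters and 83.6% of those 207), TATAAA in 2 of 11 (13.6% and 11.6%) and the NF-κB consensus in 2 of 11, Gm2959 and Gm8267 (5.89% and 17.4%). A match is a string of letters and no evidence of binding, and no match says only that the letters are not in this window.

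Neither Dlg5, which has the same domain, nor any of the synaptic scaffold genes measured was called. Which other genes outside the copies carry the domain was not determined. Dlg5 had 9.40 and 9.40 with sh1 and 9.40 and 9.58 with sh2, against 9.34, 9.37 and 9.36 in control (log2 fold change 0.09, limma adjusted p = 0.60). Of 21 genes of synaptic scaffolds and their receptors, such as Dlg4, which encodes PSD-95, and the Shank and Homer scaffolds, 19 were measured. Limma called 0 of them lower and 0 higher (at p under 0.05 before adjustment, 1 lower and 1 higher), and their median log2 fold change was 0.00. Of the 19, 2 had a mean over that background percentile in shSnail and 2 in control.

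The array gave no check of the hairpins. The study blotted nuclear Snail protein in HM-1 cells and describes HM-1-shSnail as Snail-depleted, and those blots are not part of the array values. Snai1, the gene of Snail, had 6.80 and 6.55 with sh1 and 6.69 and 6.77 with sh2, against 6.61, 6.69 and 6.70 in control, all of them within the range of negative controls given above. The groups are therefore those of the labels. Snai2 and Snai3, its relatives, had means of 4.53 and 4.50 in shSnail and 4.54 and 4.48 in control. Of 8 epithelial and ovarian surface markers, the keratins Krt8, Krt18 and Krt19 had means over that percentile in both groups, and of the markers of leukocytes (5 measured), endothelium (4), fibroblasts (4) and germ cells (4), none did. Of 6 neuronal markers, Snap25 and Nefl did, and limma called no marker of these lists, while before adjustment 1 epithelial marker was lower and 1 epithelial, 1 endothelial and 1 neuronal marker were higher at 0.05. Array medians over all clusters ran between 4.51 and 4.56.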

How the data were processed

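RNA of 7 HM-1 cultures was measured on Affymetrix mouse transcriptome arrays. The deposited table holds log2 signal made by the authors with Affymetrix Expression Console. Its version, the background correction, the summary of probes and the build were not given in the sources used here. Of 72688 entries, 65770 transcript clusters were tested, with no further normalization or filter, and 5222 negative controls served to judge background. Symbols came from the platform annotation. Groups came from the labels.

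The shSnail arrays (sh1 and sh2) were compared with control by limma 3.58.1 in R 4.3.3 (lmFit, eBayes), and a model of 3 groups gave each hairpin against control and sh2 against sh1. P-values were adjusted by Benjamini-Hochberg over all clusters. The fit was tested on simulated data. RefSeq promoters were aligned with Biopython 1.88 with free end gaps. Protein sequences were not used here. The members, the lists and the DUF622 genes were chosen with earlier results of these data known. Named genes are the listed DUF622 genes, the called other predicted genes, the 3 brightest, clusters near the list that changed over 2-fold, relatives by sequence, Snail genes, Dlg5, and further genes named after their values were seen. Alternatives covered normalization, filter, variance model, test, background, pairing and single arrays.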

Additional observations from a re-analysis of the deposited data

Results flagged for a closer look

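In 2 of 25 clusters screened, 1 of the 4 shSnail arrays lay far from the others by Dixon's ratio, which chance gives in about 1 group in 20. Gm8104 had 6.06 in sh1 replicate 1, against 6.47 to 6.48 in the other 3 shSnail arrays (ratio 0.964). Gm5930 had 5.64 in sh2 replicate 2, against 5.92 to 5.96 in the other 3 (ratio 0.854). In both genes the far array was the lowest, and the other 3 shSnail arrays also lay below all control arrays.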

How the results depend on the processing

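The median log2 fold change of the DUF622 genes stayed between -1.40 and -1.30 and that of the other predicted genes between -0.04 and 0.00 under every alternative run. All 285 values of single listed clusters kept their sign (-2.06 to -0.87). The counts of calls moved more, and nothing is read from those of the DUF622 genes, which these arrays chose. In shSnail against control, 15 DUF622 genes and 6 other predicted genes were called lower. With the replicate block these were 1 and 0. No label says that the replicate numbers pair the samples. Same-numbered control and hairpin arrays had correlations of -0.21 to -0.072 in their deviations, and sh1 and sh2 arrays 0.157. Each hairpin has 2 arrays, whose deviations from their mean mirror each other, so these correlations cannot decide whether samples are paired. With the negative control median as covariate the counts called lower were 1 and 0. Analysis of variance was run here over 3 groups (control, sh1 and sh2). After Benjamini-Hochberg adjustment it gave 1 and 0 (with 1 other gene higher), and at the study's threshold 5 and 0. By the study's own p-values all the listed genes pass that threshold, so the 5 come from a different form of the test. Quantile normalization, median centring and the filter at the 40th percentile each gave 10 other genes lower, and the fit with 3 groups 2 other genes higher. Leaving out 1 array gave 4 to 7 DUF622 genes and 0 to 2 other genes lower, with fewer samples in each fit.

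For sh1 against control, 4 DUF622 and 0 other genes were called lower. The replicate block gave 0 DUF622 genes, adjusted analysis of variance 1, trend and robust 2, array weights 7 and 2 others, centring 13 and 2, quantile 13 and 3, and the filter 10 and 2. Leaving out 1 array gave 0 to 6 DUF622 genes, 0 to 3 others lower and 0 to 3 higher. For sh2 against control, 12 DUF622 genes, 5 others lower and 2 higher were called. The block gave 0, 0 and 0, adjusted analysis of variance 1, 0 and 1, the study's threshold 5, 0 and 0, and array weights 4, 0 and 1. Trend and robust gave 3 others lower, centring 9 lower and 1 higher, quantile 10 and 1, and the filter 9 lower. Leaving out 1 array gave 1 to 8 DUF622 genes, 0 to 22 others lower and 0 to 5 higher, the 22 without sh2 replicate 1. For sh2 against sh1, 0 were called, adjusted analysis of variance gave 1 other gene higher, and leaving out 1 array 0 DUF622 genes, 0 to 14 others lower and 0 to 4 higher, the 14 without sh2 replicate 1. The cause was not tested. Gm5622 and Gm5798 lost their call in 12 of 17 alternatives, Gm6536 in 11, 2410012E07Rik and Gm8126 in 9 and Gm8257 in 8, all with the same sign. In these counts both settings of the analysis of variance were judged by the same adjusted p, so 1 alternative is repeated.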
